A study of Mus musculus with 2 samples.

Results

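The genes that import cholesterol and begin its conversion to steroid hormones were followed in gonad-mesonephros complexes of mouse embryos, the embryonic gonad with the attached mesonephric kidney. The 10 genes were Scarb1, Star, Cyp11a1, Fdx1, Fdxr, Hsd3b1, Hsd3b6, Cyp17a1, Mc2r and Mrap, and every probe set annotated with exactly 1 of these symbols was taken. This gave 15 probe sets for 8 of the genes, out of 34945 probe sets with 1 symbol for 18193 genes. Hsd3b6 had only a probe set shared with paralogs, which is given separately, and Fdxr, which had no probe set annotated to it alone, has no signal here.

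The wild-type array held RNA of 6 pairs of complexes from XX embryos at E12.5 (days of embryonic development), and the second array held RNA of 6 pairs from XX embryos of the same day that were homozygous for Gata4ki. The labels name a strain, C57Bl/6, only for mutant embryos. The knock-in allele weakens the binding of the transcription factor GATA4 to its FOG cofactors in every cell that expresses it, and each array read gonad and mesonephros together. With 1 array per group there was no spread between embryos to test against, so each difference below describes these 2 pools.

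Steroid synthesis begins when pituitary hormone, acting through a receptor and cyclic AMP, raises the delivery of cholesterol to the inner mitochondrial membrane. There the side-chain cleavage enzyme makes pregnenolone, which other enzymes turn into progesterone, androgens or adrenal steroids. In the mouse fetus these genes are known for their activity in fetal Leydig cells of the testis and in the adrenal cortex, whereas the early fetal ovary is not known as an active steroid producer. Giant cells of the mouse placenta also express several of these enzymes.

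Signals are MAS5 intensities on a linear scale, used as deposited. The 50th percentile of all values on both arrays, a signal of 24.0, served as a floor, and lower values were raised to it before taking log2 ratios of mutant over wild type. Where 1 array was at or under the floor the ratio is a bound, written as "at least", and where both were no ratio is given. Both arrays had a mean of 150.0 after the top and bottom 2% of probe sets were left out, and 22566 and 22534 probe sets lay above the floor in wild type and mutant. Of the 9 measured marker genes of the tissue none was 2-fold apart, beside 0.846% of all measured genes 2-fold higher and 0.537% lower. Wt1 was at 1461 and 1475, Lhx9 at 1890 and 1629, Emx2 at 1034 and 885 and the germ cell gene Dazl at 581 and 467.

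Cyp17a1 and Hsd3b1 had much higher signals in the mutant, as did the brightest of 3 Star probe sets. The receptor, the uptake gene and the electron carrier were less than 2-fold apart. Of the 8 genes with a probe set, all 8 were measured, meaning above the floor on at least 1 array. Of these, 3 passed 2-fold upward in the mutant and 0 downward, with no replicate to test either count. The genes were chosen with earlier results of these data known, so the counts describe them and are no separate evidence of enrichment. Over all 12300 measured genes, 0.846% were at least 2-fold higher and 0.537% at least 2-fold lower. Dim probe sets scattered more. Among the 8516 with a mean signal under 100, 1.54% were at least 2-fold higher and 1.22% at least 2-fold lower. Their robust SD of the log2 ratio was 0.38, and the probe sets of Cyp17a1, Star, Cyp11a1 and Mrap lay in this range. The median log2 ratio of the 8 genes was 0.54 with bounds taken at their value, and that of all measured genes was 0.0062. The 0.54 lies between the bounds of Mrap and Cyp11a1, 0.52 and 0.55. Both genes were measured only through the mutant array, which allows no ratio under 0, so this median does not show a shift of the set. For 4 of the 8 genes the ratio was a bound, each time with wild type under the floor. Of all 12300 measured genes 6.81% were above the floor on 1 array, 3.95% in the mutant only and 2.86% in wild type only. In a bulk extract, more cells of a type and more RNA per cell cannot be told apart.

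**Figure D1:**
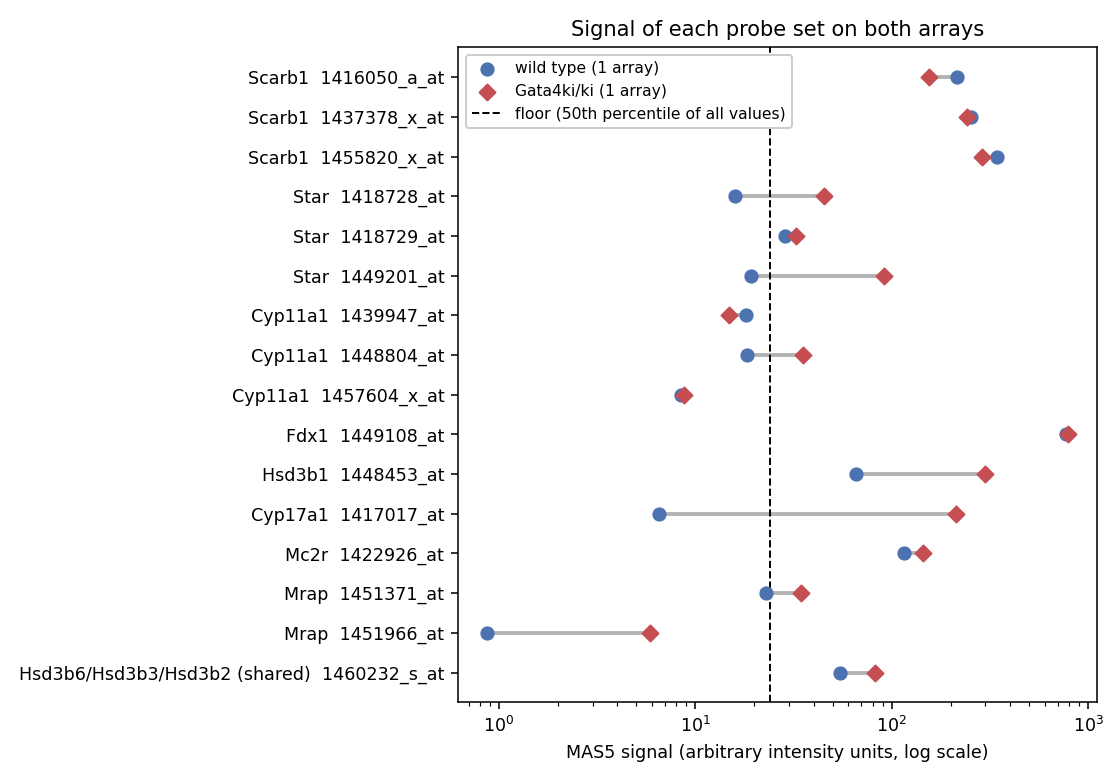
MAS5 signal of each probe set (log axis, arbitrary intensity units) on the wild-type array (circles) and the Gata4ki/ki array (diamonds), with 1 array per group and the floor of 24.0 as a dashed line. The longest bar that crosses the floor is that of Cyp17a1, from 6.49 to 212, whereas both symbols of Fdx1 overlap at 772 and 787.

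At the level of the hormone signal, neither measured gene reached 2-fold. Mc2r, the receptor for adrenocorticotropic hormone, read 116 on the wild-type array and 145 on the mutant array, a log2 ratio of 0.32. The robust SD of the log2 ratio was 0.22 over the 7569 probe sets of similar brightness, those with a mean signal of 100 to 400, and it measures scatter among genes on these arrays, not error between embryos. Mrap, the accessory protein that carries this receptor to the cell surface, had signals of 22.8 and 34.6 on one probe set, a ratio of at least 0.52. Its other probe set gave 0.869 and 5.89, both under the floor. The first Mrap probe set therefore lay just under the floor in wild type and just above it in the mutant.

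The cholesterol uptake receptor Scarb1, which takes up cholesterol esters from lipoproteins, had lower signals in the mutant on all 3 of its probe sets, none of them by 2-fold. The signals were 342 and 287 on the brightest probe set, 254 and 241 on the second and 215 and 155 on the third. The log2 ratios were -0.25, -0.08 and -0.47. All 3 probe sets carry an identifier suffix that marks probes shared between transcripts or, for the first 2, likely to cross-hybridise. Such probe sets sample 1 RNA pool and are no replicates.

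Star encodes the carrier that moves cholesterol into mitochondria, the step that hormone regulates acutely. Its brightest probe set read 19.1 on the wild-type array and 91.7 on the mutant array, at least 3.82-fold higher with a log2 ratio of at least 1.93. The second gave 15.98 and 45.1, a ratio of at least 0.91, and the third gave 28.8 and 32.4, a ratio of 0.17. The mutant array was thus higher on all 3, but by amounts from 1.13-fold to at least 3.82-fold, although the annotation assigns the 3 probe sets to 1 accession. The median of the 3 ratios, 0.91, was under 2-fold.

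Cyp11a1, the side-chain cleavage enzyme, was close to the floor on both arrays. One of its probe sets had signals of 18.3 and 35.2, at least 1.46-fold higher in the mutant with a log2 ratio of at least 0.55. The other probe sets gave 18.1 and 14.9, and 8.42 and 8.72, all under the floor, so 1 of 3 was measured. Fdx1, the ferredoxin that passes electrons to mitochondrial P450 enzymes, gave 772 and 787, a ratio of 0.03. Probe sets with a mean signal over 400 had a robust SD of 0.13, and the Fdx1 ratio was smaller than that.

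Hsd3b1 encodes a 3-beta-hydroxysteroid dehydrogenase, which turns pregnenolone into progesterone. Its single probe set read 66.1 on the wild-type and 297 on the mutant array, 4.49-fold higher with a log2 ratio of 2.17. Both values were above the floor, so this ratio is not a bound. Among the 7569 probe sets with a mean signal of 100 to 400, 28 (0.370%) passed 2-fold upward in the mutant and 22 (0.291%) downward. Hsd3b1 belongs to a family of closely related genes, and how far its probes read the paralogs was not tested.

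The paralogs had smaller ratios than Hsd3b1. The probe set annotated to Hsd3b6, Hsd3b3 and Hsd3b2 together read 54.2 and 81.9, a log2 ratio of 0.59, a signal that cannot be divided among the 3 genes. Hsd3b6 is known from mouse Leydig cells, the outer adrenal cortex and placental giant cells. Hsd3b3 alone gave 28.4 and 15.9 on its brightest probe set, at least 1.18-fold lower in the mutant, and its other probe set, like those of Hsd3b2 and Hsd3b5, was under the floor on both arrays. Hsd3b7, which acts in bile acid synthesis, gave 124 and 128. A probe set shared by Hsd3b4, Gm4450 and Gm10681 read 194 and 168, a log2 ratio of -0.21. Of the 2 measured paralogs with a probe set of their own, neither was 2-fold apart, beside 0.846% of all measured genes 2-fold higher and 0.537% lower.

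Cyp17a1, whose enzyme makes androgen precursors from progesterone and pregnenolone, had the largest ratio of the 8 genes. Its single probe set gave 6.49 in wild type, under the floor, and 212 in the mutant, at least 8.81-fold higher with a log2 ratio of at least 3.14. Ranked by log2 ratio over the 12300 measured genes, with bounds at their value, Cyp17a1 was 3, Hsd3b1 was 11 and Star was 14, while Cyp11a1, Mrap and Mc2r ranked 509, 570 and 1338. Ctsj and Cpa1 ranked above Cyp17a1. Because bounds depend on the floor, the ranks of Cyp17a1 and Star do too, and the 8 genes were chosen with earlier results of these data known.

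**Figure D2:**
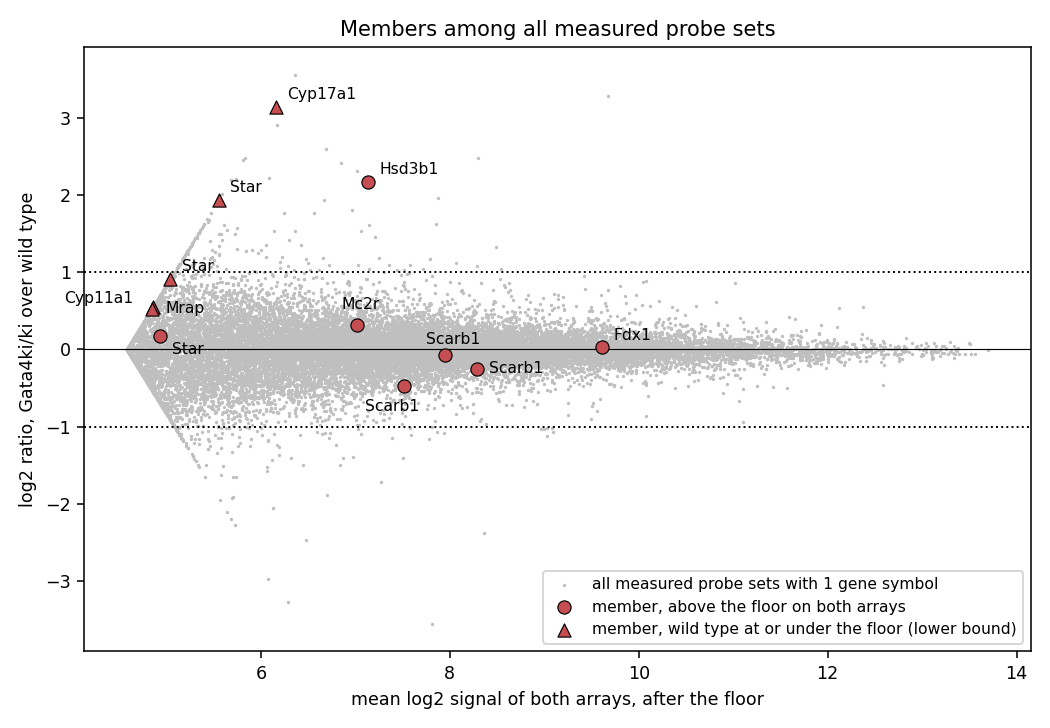
Log2 ratio of Gata4ki/ki over wild type against the mean log2 signal of both arrays, for all measured probe sets with 1 gene symbol (grey) and those of the steroidogenic genes (red; triangles are lower bounds, dotted lines mark 2-fold). Of the 12 measured probe sets, 3 lie above the upper dotted line, those of Cyp17a1 and Hsd3b1 and the brightest of Star, and Fdx1 and Scarb1 lie within the main cloud.

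Counted by probe set, 12 of the 15 were measured, 7 of them above the floor on both arrays and 5 in the mutant only. None was above the floor in wild type only. Over all 21238 measured probe sets with 1 symbol, 4.51% were above it in the mutant only and 4.42% in wild type only. Of the 12, 3 were at least 2-fold higher and 0 at least 2-fold lower. Over the same 21238, 0.753% were at least 2-fold higher and 0.622% at least 2-fold lower.

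Upstream sequence is shown for Hsd3b1 with its relative Hsd3b6, Cyp11a1 and its electron donor Fdx1, which are among the genes with a window. GATA4 is the altered factor, and steroidogenic promoters are known targets of GATA factors and of NR5A1. Each line gives the 250 bases before an annotated transcript start from RefSeq (GRCm38.p6), 5′ to 3′ on the gene's strand. Capitals mark the letters AGATAA or TGATAA or else AGATAG or TGATAG on either strand.
Hsd3b1, chr3:98859795-98860044, minus strand: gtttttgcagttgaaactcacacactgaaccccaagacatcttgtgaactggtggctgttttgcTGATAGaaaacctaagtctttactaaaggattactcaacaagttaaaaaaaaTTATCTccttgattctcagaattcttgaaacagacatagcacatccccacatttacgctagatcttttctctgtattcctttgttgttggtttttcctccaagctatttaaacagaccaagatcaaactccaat
Hsd3b6, chr3:98814444-98814693, minus strand: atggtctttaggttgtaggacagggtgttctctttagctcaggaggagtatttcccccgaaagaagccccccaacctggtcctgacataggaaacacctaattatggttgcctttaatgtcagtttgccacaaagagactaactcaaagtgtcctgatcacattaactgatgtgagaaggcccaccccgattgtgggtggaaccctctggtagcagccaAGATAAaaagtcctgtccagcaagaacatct
Cyp11a1, chr9:57997774-57998023, plus strand: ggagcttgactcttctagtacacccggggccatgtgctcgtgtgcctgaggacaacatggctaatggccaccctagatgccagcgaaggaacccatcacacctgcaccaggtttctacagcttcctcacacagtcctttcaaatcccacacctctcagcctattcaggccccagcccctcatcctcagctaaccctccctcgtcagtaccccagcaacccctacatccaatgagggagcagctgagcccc
Cyp11a1, chr9:58014702-58014951, plus strand: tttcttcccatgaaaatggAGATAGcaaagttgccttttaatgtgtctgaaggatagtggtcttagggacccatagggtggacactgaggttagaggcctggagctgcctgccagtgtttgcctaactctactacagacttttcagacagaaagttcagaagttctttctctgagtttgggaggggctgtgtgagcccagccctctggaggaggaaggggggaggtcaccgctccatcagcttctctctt
Fdx1, chr9:51963603-51963852, minus strand: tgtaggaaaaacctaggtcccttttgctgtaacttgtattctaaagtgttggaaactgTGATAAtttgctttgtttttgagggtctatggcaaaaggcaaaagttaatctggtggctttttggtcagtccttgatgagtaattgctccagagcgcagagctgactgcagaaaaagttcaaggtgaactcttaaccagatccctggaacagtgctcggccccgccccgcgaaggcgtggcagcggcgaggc
Star, Cyp17a1, Scarb1, Mc2r and Mrap had no window among those used here. Cyp17a1 and Star, which passed 2-fold, are therefore absent from the counts below.

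Of the 6 windows found for 5 of the genes, Fdxr included, 5 held the GATA letters, while of all 32851 RefSeq windows of this length 26.5% did. Among these genes only Hsd3b1 is reported above as 2-fold higher, and Cyp11a1 gave a window for each of its starts. In Hsd3b1, which was 4.49-fold higher in the mutant, the matches began 186 and 134 bases before the start. In Cyp11a1 the window of the downstream start held 1 match, 231 bases before it, and the window of the upstream start held 0. Fdx1, with similar signals on both arrays, also held 1 match, 192 bases before its start, and Hsd3b6 held 1 at 31 bases. The letters AAGGTCA or AAGGCCA of the NR5A1 motif, which do not overlap the GATA letters, were in 0 of the 6 windows and in 9.09% of all windows. A match of letters is not a bound site, and these arrays do not measure binding.

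Genes next to each of the 8 on the chromosome were also compared. Gata4 lies on chromosome 14 and 0 of the 10 genes do. Of the 48 nearest measured genes, 3 on each side in RefSeq order, 0 were 2-fold apart. This is near the share over all measured genes, 0.846% at least 2-fold higher and 0.537% at least 2-fold lower. The log2 ratios of the 48 ran from -0.59 to 0.46 with a median of -0.0096. Wbp1l and Borcs7, the measured genes on either side of Cyp17a1, had ratios of -0.01 and -0.13. Hsd3b3 and Hao2, the measured genes on either side of Hsd3b1, had a ratio of at most -0.24 and one of 0.44.

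Of the genes that supply cholesterol to this pathway 0 of 10 measured were 2-fold apart, with a median log2 ratio of -0.0027. Over all measured genes 0.846% were at least 2-fold higher and 0.537% at least 2-fold lower, so this count is near the general share. Stard3, a late endosomal cholesterol transfer protein related to Star, had signals of 250.5 and 179, a ratio of -0.48. Stard4, a cytosolic member of the same family, had 255 and 296, a ratio of 0.21 on its brightest of 3 probe sets, of which another gave -0.07. Npc1, which exports cholesterol from lysosomes, and Lrp1, a lipoprotein receptor, had ratios of -0.14 and 0.14, and the dimmer Lrp1 probe set gave -0.08. Tspo, a mitochondrial membrane protein once assigned to cholesterol import, read 172 and 173 at its brightest, with log2 ratios of 0.52 and -0.18 on its other probe sets.

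The listed enzymes later in the pathway were under the floor on both arrays, so they have no ratio. Of 8 listed later enzymes and P450 partners on the array 3 were measured, the partners Cyb5a, Cyb5b and Pgrmc1. Of these 0 were 2-fold apart, near the share over all measured genes, 0.846% at least 2-fold higher and 0.537% at least 2-fold lower. The count covers only these partners. Cyp21a1, Cyp11b1 and Cyp11b2, which make adrenal steroids, and Hsd17b1 and Hsd17b3, which reduce oestrogen and androgen precursors, were under the floor on both arrays. The Cyp11b1 signals were 10.3 and 20.8 and those of Cyp21a1 were 23.8 and 6.67. Cyb5a, the cytochrome that aids the lyase reaction of the Cyp17a1 enzyme, read 1946 and 1691, a log2 ratio of -0.20. Its relative Cyb5b had a ratio of 0.07 on the brightest and of -0.30 and -0.50 on its other probe sets, and Pgrmc1, a partner of P450 enzymes, had signals of 2654 and 2652. Among other mitochondrial P450s and iron-sulphur proteins 3 of 5 were measured and 0 were 2-fold apart, again near the share over all measured genes. Cyp27a1, a sterol hydroxylase, and Nfs1, a cysteine desulphurase, were both at -0.09 and Iscu, an iron-sulphur scaffold, at 0.12.

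Among 17 regulators of these genes, 2 passed 2-fold upward in the mutant and 0 downward (0.846% and 0.537% of all measured genes), with a median log2 ratio of 0.03. Nr0b1, an orphan receptor that represses steroidogenic genes, had signals of 112 and 240, 2.13-fold higher. Zfpm1, which encodes FOG1, had 98.6 and 203, 2.06-fold higher, and its other probe set was under the floor. Cited2, a coactivator of adrenal and gonad development, had 670.3 and 1186, a ratio of 0.82, and its dimmer probe set gave 0.48. Zfpm2, which encodes FOG2, had ratios of 0.56 and 0.97. Nr5a1, steroidogenic factor 1, had 219 and 277, a ratio of 0.34. Gata4 itself, which the allele changes in the protein, gave 0.25 and -0.51 on its probe sets, so its direction depended on the probe set.

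Receptors and cyclic AMP signalling genes gave 7 measured genes of 12, 0 of them 2-fold apart. This too is near the share over all measured genes, 0.846% at least 2-fold higher and 0.537% at least 2-fold lower. The melanocortin receptors Mc1r, Mc3r and Mc5r, the accessory protein Mrap2 and the follicle-stimulating hormone receptor Fshr were under the floor on both arrays. Pde8b, a cyclic AMP phosphodiesterase, had 30.6 and 18.3, a ratio of at most -0.35. The protein kinase A subunits Prkaca and Prkar2b had ratios of -0.20 and 0.17, and Akap1, a mitochondrial kinase anchor, had -0.16. Each of these 3 had a dimmer probe set of the opposite sign, at 0.04, -0.03 and 0.21, and another dimmer Prkar2b probe set gave 0.33. Cyp19a1, Lhcgr and Insl3 are not analysed here.

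Markers of cells that carry these enzymes elsewhere were examined. Of the 5 fetal Leydig cell markers on the array 4 were measured and 1, Inha, was 2-fold higher, beside 0.846% of all measured genes. Inha, the inhibin alpha subunit, also made by granulosa, Sertoli and adrenal cells, had signals of 119 and 462, 3.89-fold higher. Ptch1, Gli1 and Pdgfra had log2 ratios of 0.11, -0.17 and -0.15, with -0.46 and 0.46 on the dimmer Pdgfra probe sets, and the Leydig enzyme gene Hsd17b3 gave 8.80 and 6.23. The list median was -0.02, and its summed signal was 2715 on the wild-type and 2964 on the mutant array, or 2597 and 2502 without Inha. Most of that last sum came from Ptch1, at 955 and 1028, and Pdgfra, at 1541 and 1386, so it says little about the dimmer markers. Of the 5 adrenal cortex markers 2 were measured, Nr5a1 and Nr0b1, with a summed signal of 368 and 545 for the list, and both are expressed in the gonad too. The defining adrenal enzymes Cyp21a1, Cyp11b1 and Cyp11b2 were under the floor on both arrays.

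Adrenal medulla and sympathetic markers were measured in 10 of 10 cases, with summed signals of 1424 and 1392. Of the 10, 1 was 2-fold higher and 0 were 2-fold lower, beside 0.846% and 0.537% of all measured genes. Th and Dbh, which make catecholamines, had log2 ratios of 0.11 and 0.04. Pnmt, the enzyme that makes adrenaline, had 13.3 and 60.8 on its brightest probe set, at least 2.53-fold higher, while its other probe sets were under the floor on both arrays. Chga, a granule protein, had 48.8 and 26.2, a ratio of -0.90, and Phox2a and Slc18a1 had -0.47 and -0.41.

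Some placental genes were also higher in the mutant. Of 15 trophoblast and placenta genes on the array 10 were measured, 4 at least 2-fold higher and 0 at least 2-fold lower, beside 0.846% and 0.537% of all measured genes, with summed signals of 771 and 1577. Ctsj, a placental cathepsin, had 1.29 and 283, at least 11.8-fold higher. Ctsq gave 0.813 and 77.7 and Prl2b1, a placental prolactin, 0.640 and 132, at least 3.23-fold and 5.49-fold higher. Prl7d1 was at least 2.28-fold higher. Of the 10 measured genes 6 were above the floor in the mutant only, these 4 among them, against 3.95% of all measured genes. Such genes allow no ratio under 0. Prl8a9, Prl6a1, Ctsm, Ctsr and Tpbpa, a spongiotrophoblast marker, were under the floor on both arrays, and Plac1 and Rhox6 were bright in both, with ratios of 0.57 and 0.31, while Peg10 and Tfpi2 had ratios of 0.11 and -0.10. Ctsj, Ctsq and Prl2b1 were put on the list with their values already known, and without these 3, 1 of 7 measured genes was 2-fold higher. The part of placental cells in the signals of Cyp17a1, Hsd3b1 and Star was not tested.

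Some erythroid markers passed 2-fold upward in the mutant, and none of the 10 listed macrophage markers did. The macrophage count covers only that list. Outside it, Prg2, the Fc receptor gene Fcgr2b and the chemokine gene Ccl24 had log2 ratios of 2.91, 2.22 and at least 2.19. Of 7 erythroid genes measured 4 passed, beside 0.846% of all measured genes, Hemgn (at least 4.57-fold), Klf1, Slc4a1 (1.42 and 0.95 on its measured probe sets, on the log2 scale) and Alas2, with summed signals of 7292 and 8885 and a median log2 ratio of 1.03. The embryonic globins Hba-x and Hbb-bh1 had ratios of 0.29 and 0.18 and Epb42 one of at least 0.02. Of 10 macrophage genes 0 were 2-fold apart, 10 had a ratio above 0, against 51.4% of all measured genes, and the median was 0.62, with summed signals of 1522 and 2344. The largest of these ratios were those of Ptprc, Fcer1g, Csf1r and Adgre1, at 0.92, 0.87, 0.77 and 0.72, while Cd68, C1qa and Lyz2 had 0.13, 0.02 and 0.00092. No marker of these lists was listed at exactly 0 on either array. The part of blood cells in the steroidogenic signals was not tested.

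**Figure D3:**
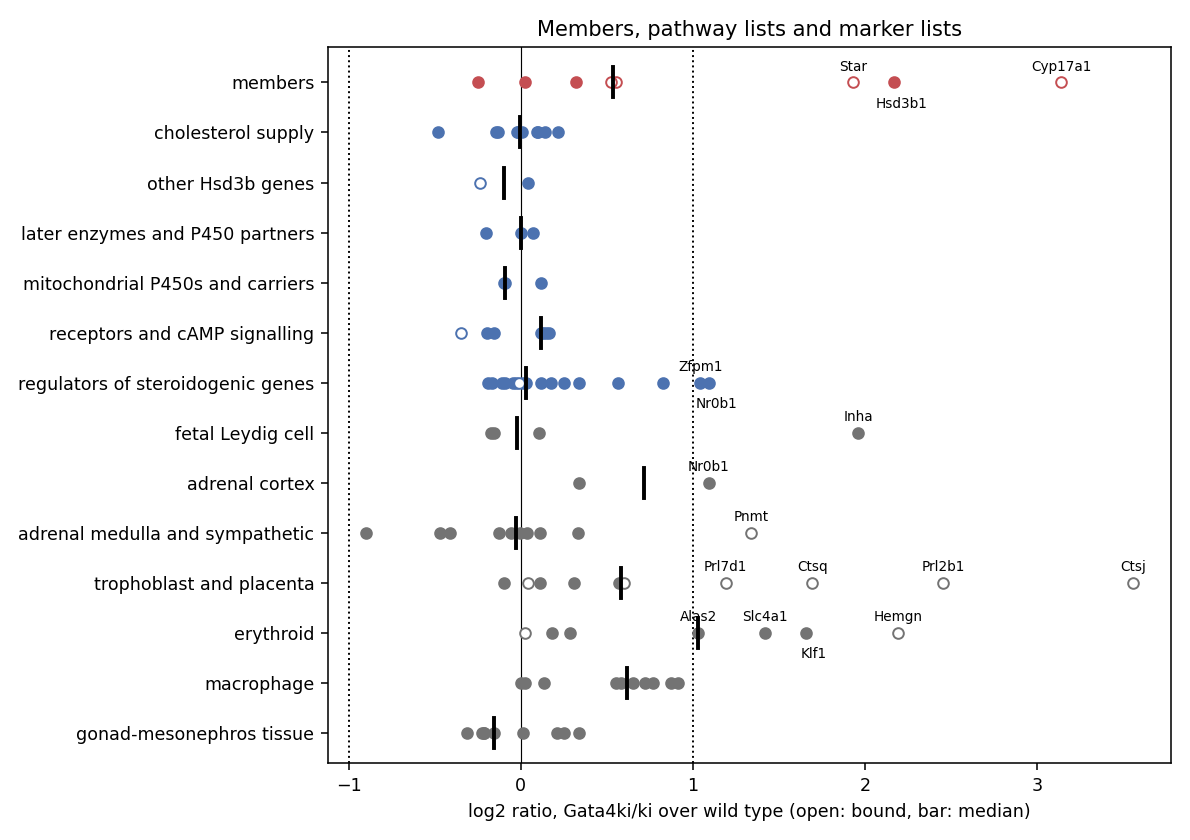
Log2 ratio of Gata4ki/ki over wild type for each measured gene of the steroidogenic set (red), of the pathway lists (blue) and of the marker lists (grey). Open symbols are bounds, black bars are medians and dotted lines mark 2-fold; the cholesterol supply genes lie between -0.48 and 0.21, whereas 4 placental genes lie to the right of 1.

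**Figure D4:**
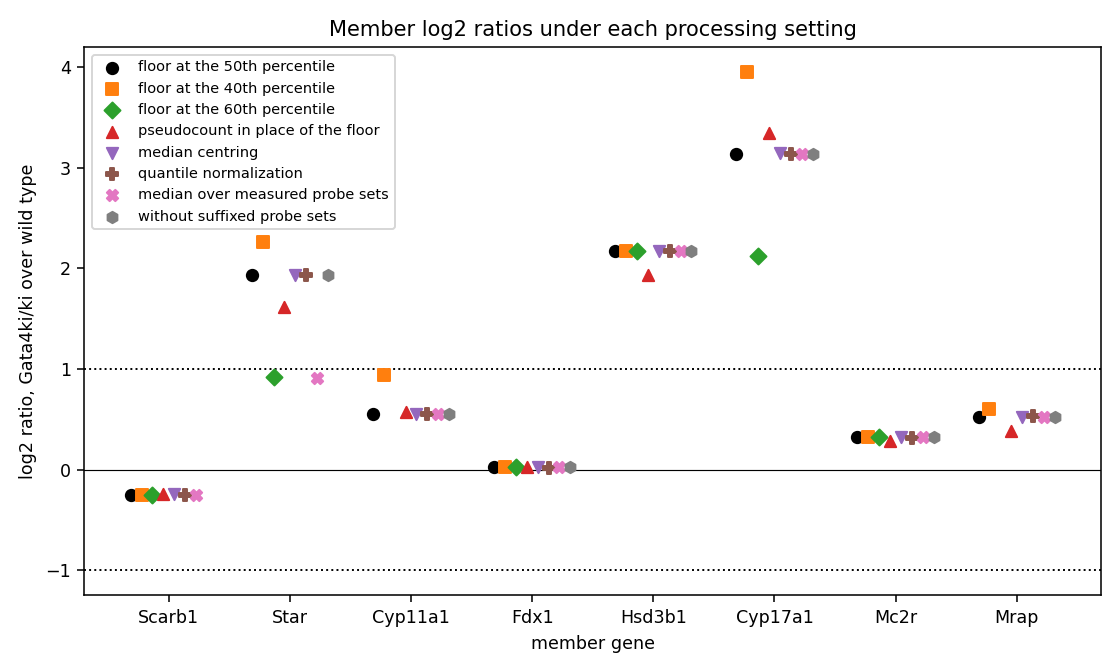
Log2 ratio of each measured steroidogenic gene (its brightest probe set unless stated) under the reported setting and 7 alternatives, with dotted lines at 2-fold. Hsd3b1 lies between 1.93 and 2.17 and Cyp17a1 between 2.13 and 3.95, above the dotted line in every setting shown. Star falls to 0.92 with the floor at the 60th percentile and to 0.91 with the median over its probe sets. Both Star values are lower bounds.

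The plot of ratios by setting shows where the floor decides a value. Hsd3b1 was above 2-fold in each of the 7 alternatives, and its value did not rest on the floor. The bound for Cyp17a1 moved with the floor and stayed above 2-fold. The bound for Star fell under 2-fold in 2 alternatives, which does not show that its ratio did. Cyp11a1 and Mrap could not be measured with the floor at the 60th percentile.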

How the data were processed

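Each of the 2 arrays, 1 for wild type and 1 for Gata4ki/ki, held biotin-labelled cRNA from total RNA of 6 pairs of complexes, per the labels' protocols. The deposited table holds a signal intensity for each probe set, and the submitters' processing notes name MAS5; the version, detection calls and filters were not given in the sources used here. One scaling factor per array leaves ratios within an array unchanged, and background subtraction makes low signals imprecise. The number of arrays limits the precision.

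Of 45101 probe sets, 34958 had 1 gene symbol in the platform annotation and 932 had several, and the 64 control probe sets were left out of gene comparisons. Gene numbers were found in RefSeq (GRCm38.p6) for 34741 of the 34945 remaining, and 0 symbols changed. Where a gene had several probe sets, the brightest by mean log2 signal stood for it. No test between groups was possible. The named genes were the 10 members, the 4 genes of each list farthest from a ratio of 0, genes 2-fold apart and a few taken by name; others, such as Tspo, Wt1 and Lhx9, and genes under the floor or next to a member, were chosen after their values were seen. Members and lists were chosen with earlier results of these data known. Alternatives were floors at the 40th and 60th percentiles, a pseudocount of 16, median centring, quantile normalization, the median over probe sets and leaving out suffixed probe sets. The procedure was tested on simulated data. Python 3.11.15, pandas 2.3.3 and numpy 2.4.6 were used.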

Additional observations from a re-analysis of the deposited data

Results flagged for a closer look

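The probe set shared by Hsd3b6, Hsd3b3 and Hsd3b2 stood outside the rule for single-gene probe sets and had a signal of 81.9 in Gata4ki/ki, above the 54.2 of the wild-type array. The difference rests on 1 array per group and was not tested.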

How the results depend on the processing

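Of the 8 measured genes, 3 were at least 2-fold higher as reported, 2 at a 60th percentile floor (of 6 measured), 2 when a gene's probe sets were averaged by their median and 3 in the other 5 alternatives. In all of these 0 were 2-fold lower. Where fewer passed, Star was counted at a bound under 2-fold, which does not show a ratio under 2-fold. With the floor at the 40th percentile the log2 ratio was 0.94 for Cyp11a1 and at least 3.95 for Cyp17a1, and the median over the genes was 0.77. With the floor at the 60th percentile it was at least 2.13 for Cyp17a1 and at least 0.92 for Star. With the pseudocount it was 1.93 for Hsd3b1, and with the median over probe sets at least 0.91 for Star. These shifts follow from the construction of the alternatives. They exceeded the robust SD of ratios among probe sets of like signal, for the median that among all genes, and no ratio of a gene changed sign. The background count of genes 2-fold higher was 104 as reported, 210 and 41 with the lower and higher floor. Adding Hsd3b6 through its shared probe set, an alternative chosen after seeing the data, left 3 genes 2-fold higher, of 9, and a median of 0.55. Scarb1 had no value without suffixed probe sets, and Cyp11a1 and Mrap had none at the 60th percentile floor. Low signal over background limits Star, Cyp11a1, Mrap and the wild-type value of Cyp17a1. No paired analysis was possible because each group had 1 array.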
